A study of Drosophila melanogaster with 15 samples.

Results

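Odorant-binding protein (Obp) genes were taken as the genes of the deposited expression table whose listed name begins with Obp followed by a digit. This rule found 28 genes among 11257, represented by 33 of 18960 transcripts. Where a gene had more than 1 transcript, the one with the highest mean level was used, so each gene is described by 1 value per library. The table lists 8 further genes of the same family under older names, such as lush and the Pbprp genes, and these were kept apart as a comparison group. A later annotation names 52 genes of the family, and those outside these 36 were not analysed here. Membership rests on the names alone: protein sequences were not used here, so the conserved cysteines that define the family were not counted.

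Odorant-binding proteins are small soluble proteins that support cells secrete into the fluid around insect sensory neurons. Several of them bind odorants, pheromones or tastants, and lush, listed here under its own name, is required for the response to the male pheromone cis-vaccenyl acetate. Many members are also made outside the antenna, in taste bristles, glia, fat body and the male reproductive tract, where their functions are less well defined. By their cysteines the family divides into Classic, Plus-C and Minus-C proteins and Dimer proteins with a repeated domain, and 17, 4, 5 and 2 of the 28 genes belonged to these classes.

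RNA sequencing had been carried out on adult male Drosophila melanogaster of 2 strains. WT flies were an isogenic w1118 line, and DAT mutants carried dDATfmn, a loss-of-function allele of the dopamine transporter gene, in the same nominal background. At 7 days after eclosion, individual flies were placed for 48 h on agar and sucrose food made with water (vehicle) or with 10 mM amphetamine (AMPH), which gave 4 libraries per group, except for the AMPH-treated DAT mutants with 3. The labels give the tissue as brain and the source as adult head. Each library came from the head of 1 fly. Values are RPKM, that is reads scaled by the length of the transcript and by the mapped reads of the library, so levels can be compared between genes. Each strain is a single line, so an allele difference elsewhere in the genome cannot be told apart from the DAT mutation.

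The comparisons used 13 of the 15 libraries. Replicate 1 of WT vehicle and replicate 2 of DAT mutant vehicle were set aside, since group means recomputed from the other 13 matched those the study listed, and values in the set-aside libraries are given beside the rest. DAT mutant vehicle replicate 2 stood apart over all genes: its highest rank correlation with a library of its group was 0.83, against at least 0.97 elsewhere, over 15597 transcripts. Sequencing depth recovered from the steps of low values ran from 11.1 M to 77.8 M reads, and 3 of the 4 DAT mutant vehicle libraries held between 11.1 M and 12 M. DAT itself was at 2.18 to 3.12 RPKM in WT vehicle, 1.93 to 3.30 in WT AMPH, 1.98 to 2.37 in DAT mutant vehicle and 1.23 to 1.81 RPKM in DAT mutant AMPH, so the strains overlapped on vehicle, and a transcript level does not test an allele of this kind. Head markers were present in all libraries, with 5 neuronal genes summing to 613 to 904 RPKM over the 13 libraries. The set of 6 photoreceptor genes summed to 24900 to 45560 RPKM, and these cells lie in the eye and not in a dissected central brain.

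The Obp genes covered a wide range of levels (the plot of levels by library). In WT vehicle 9 of them averaged at least 100 RPKM, 8 lay between 10 and 100 RPKM and 11 lay under 10 RPKM. Obp99b, a Minus-C protein made in fat body, had the highest mean at 876 ± 352 RPKM (SD, n = 3) at rank 80 among all genes. Obp44a, a Minus-C protein of brain glia, followed at 780.3 ± 222 RPKM, and Obp56g, also known from seminal fluid, at 686 ± 107 RPKM. Obp56d and Obp99c averaged 487 ± 176 and 446 ± 78.3 RPKM. The libraries of each of these 5 overlapped those of the next in the order. Obp99c, the last of them, lay under Obp99b, Obp44a and Obp56g in all libraries compared. The antennal Obp19a came next at 244 ± 19.4 RPKM, with each of the 3 libraries compared under those of Obp99c. In the set-aside WT vehicle library the order was reversed, with Obp19a at 305 RPKM and Obp99c at 25.1 RPKM. Obp56g had 2 listed transcripts, and adding both gave 1367 RPKM, against 686 RPKM for the one used. How reads shared by transcripts of a gene were counted is not given, so that sum may hold the same reads more than once. The lowest were Obp50a, Obp57e and Obp58b, each with a mean under 1 RPKM in WT vehicle.

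**Figure D1:**
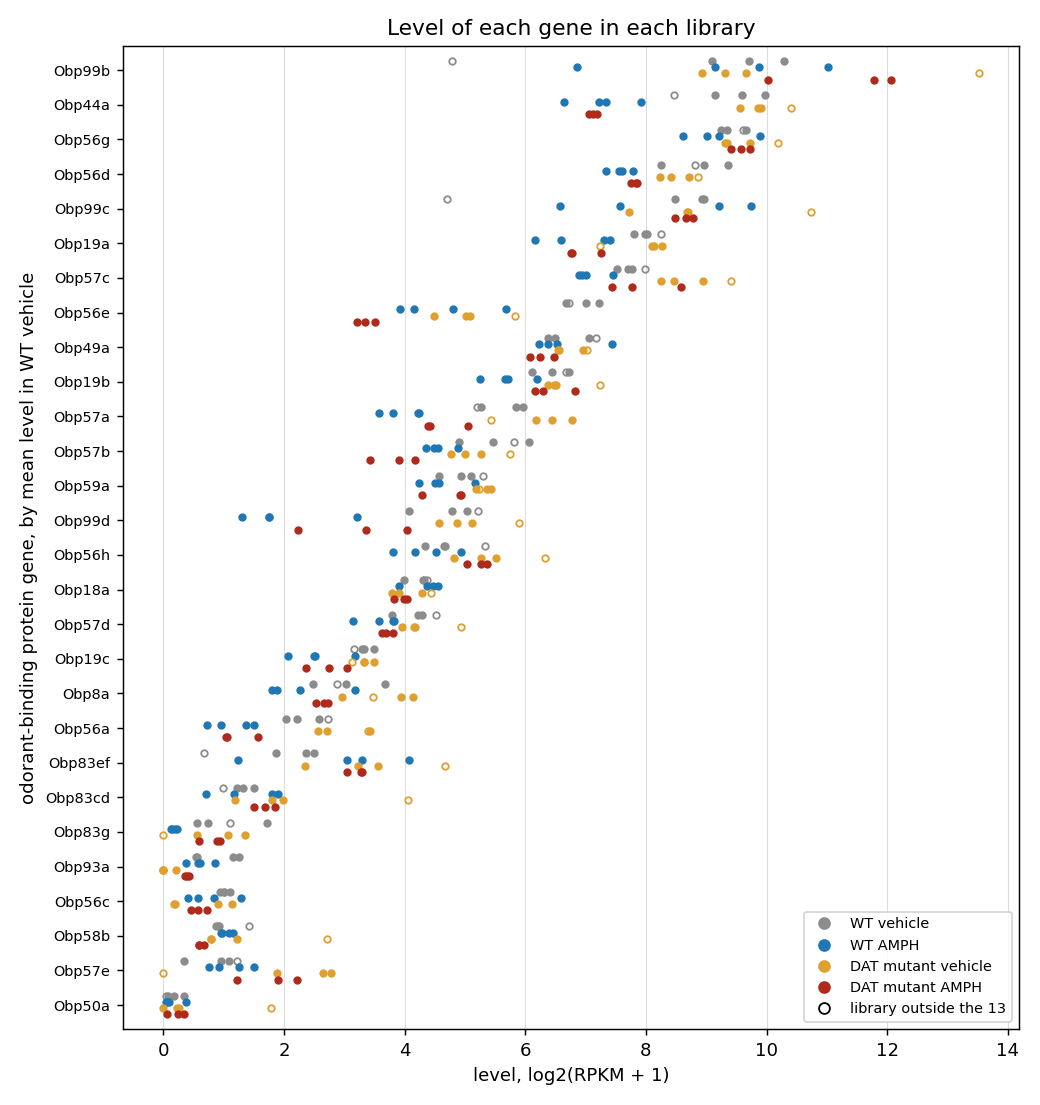
Level of each of the 28 Obp genes, as log2(RPKM + 1), in the 15 libraries. Each point is 1 library, colours are the 4 groups and open points are the 2 libraries set aside. Obp99b, Obp44a and Obp56g lie at the top, and Obp44a, Obp56e, Obp57a and Obp99d show AMPH libraries to the left of the vehicle libraries of the same strain.

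The genes lay on chromosomes 2R, 3R and X, with 16, 7 and 5 of them, and 22 of the 28 lay in 7 runs of neighbours less than 50 kb apart (dm3 coordinates, as in the table). The longest run held Obp57c, Obp57b, Obp57a, Obp57e and Obp57d at chr2R:16391061-16437597, and 4 of the Obp56 genes (a, c, d and e) lay at chr2R:15585228-15600461. Obp19a, Obp19b and Obp19c filled chrX:20286757-20289991, and Obp99c, Obp99d and Obp99b lay at chr3R:25511456-25542532. Some transcripts overlapped others. Obp57b shared 542 bases of its span with a transcript of Obp57c, other than the one used here, on the same strand. Obp57d lay within Cpr57A on the same strand over 1726 bases. Reads from these shared spans may not be fully separable. Obp59a lay within CG30259 on the opposite strand, and whether strand was used in counting is not given in the sources used here.

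AMPH was followed by lower levels of many Obp genes in both strains. In WT, 11 of the 23 Obp genes that passed the filter on low values fell and none rose, at an adjusted p under 0.1 (limma on log2(RPKM + 1), Benjamini-Hochberg over all transcripts). A log2 change here is the AMPH minus the vehicle mean on that scale, given with its standard error (SE), and a gene past the threshold is said to be called. Alternatives tried were other sets of libraries, other filters, pseudocounts, scalings and thresholds, and other models. Over all 17584 transcripts tested 22.0% were called and 14.8% were called lower. The median log2 change of the 23 genes was -0.58, against -0.07 over all transcripts. In DAT mutants 13 of 23 fell and 1, Obp99b, rose, where 22.1% of 17483 transcripts were called and 15.4% were called lower. Here the median was -0.62 against -0.08 over all transcripts. Every AMPH library lay under every vehicle library for 10 Obp genes in WT, against 19.7% of all transcripts, and for 13 in DAT mutants, against 24.8%. A gene could pass the filter on the libraries of its higher group alone, so these counts describe the genes tested and not all 28. With all 15 libraries the count of lower genes was 12 in WT and 3 in DAT mutants, where it was held by Obp44a, Obp56a and Obp56e. Over all transcripts those libraries gave 5167 calls of 17464 in WT and 258 of 17555 in DAT mutants. The 13 libraries gave 3868 and 3862. In WT the count of Obp genes was 6 without WT vehicle replicate 3 and 7 without WT vehicle replicate 2. Calls over all transcripts in these fits were 2345 of 17747 and 2108 of 17755. The Obp counts moved in the same direction as those over all transcripts.

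**Figure D2:**
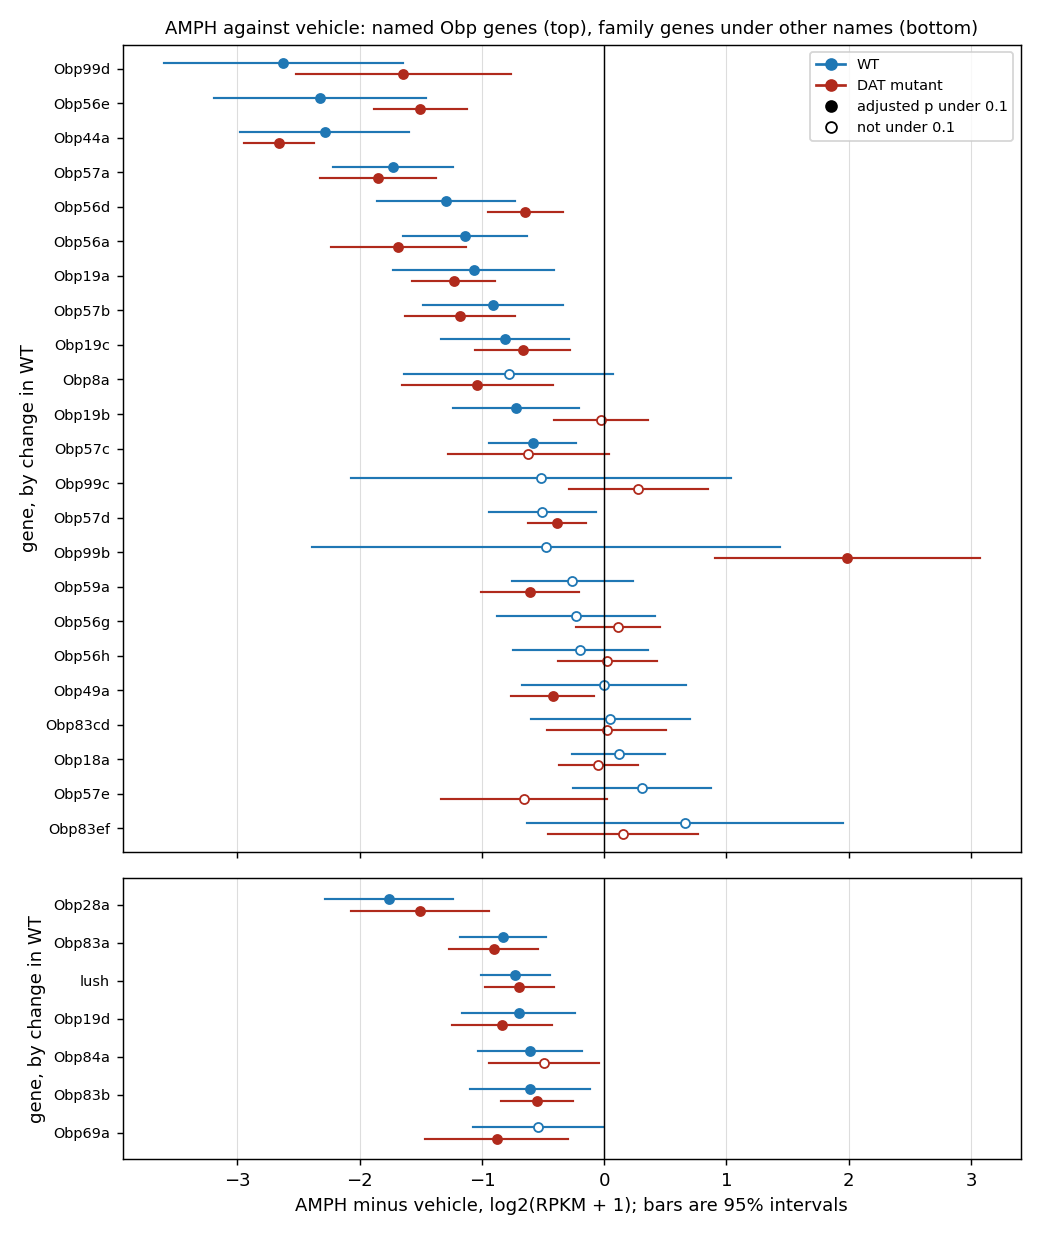
AMPH minus vehicle on the log2(RPKM + 1) scale for the 23 Obp genes tested in WT (upper panel) and 7 family genes under other names (lower panel), with WT in blue and DAT mutants in red. Points are estimates, bars are 95% intervals and filled points have an adjusted p under 0.1. Most filled points lie left of 0, and Obp99b in DAT mutants is the only filled point to the right.

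Among genes known for expression outside chemosensory organs, Obp44a fell in both strains. Obp44a was at 770.2, 563 and 1008 RPKM in WT vehicle (351 in the set-aside library) and at 149, 161, 99.2 and 242 RPKM in WT AMPH. All 4 WT AMPH libraries lay under the vehicle libraries, also under the set-aside one. Obp44a in WT had a log2 change of -2.29 ± 0.30 SE, with an adjusted p of 0.00301. Obp44a in DAT mutants was at 961, 754 and 932 RPKM on vehicle (1359 in the set-aside library) and at 132, 145 and 138 RPKM on AMPH. The 3 AMPH libraries agreed closely and lay far under all 4 vehicle libraries. Obp44a in DAT mutants had a log2 change of -2.66 ± 0.12 SE, with an adjusted p of 3.19e-05. Expressed as a ratio of log2-scale means, this was 4.88 times lower in WT and 6.31 times lower in DAT mutants, and the call held under each alternative tried.

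Obp56d, also found in tissues without chemosensory neurons, fell in both strains. Obp56d was at 305, 500.3 and 657 RPKM in WT vehicle (449.8 in the set-aside library) and at 219.8, 194, 160.0 and 187 RPKM in WT AMPH. Obp56d in DAT mutants was at 418, 301 and 341 RPKM on vehicle (467 in the set-aside library) and at 231, 226 and 214 RPKM on AMPH. Groups did not overlap in either strain. Obp56d in WT had a log2 change of -1.29 ± 0.25 SE, with an adjusted p of 0.0129. Obp56d in DAT mutants had a log2 change of -0.65 ± 0.13 SE, with an adjusted p of 0.016. The difference between these responses was not called (-0.65 ± 0.31 SE, WT minus DAT mutant, adjusted p = 0.959). The DAT mutant call of Obp56d was lost with all 15 libraries (adjusted p = 0.223).

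Its neighbour Obp56a was much scarcer and also fell in both strains. Obp56a was at 3.10, 4.998 and 3.65 RPKM in WT vehicle (5.59 in the set-aside library) and at 1.82, 0.653, 0.942 and 1.59 RPKM in WT AMPH. Obp56a in DAT mutants was at 5.58, 9.73 and 4.91 RPKM on vehicle (9.54 in the set-aside library) and at 1.04, 1.96 and 1.08 RPKM on AMPH. The AMPH libraries all lay under 2 RPKM and the vehicle libraries above 3 RPKM. Obp56a in WT had a log2 change of -1.14 ± 0.22 SE, with an adjusted p of 0.014. Obp56a in DAT mutants had a log2 change of -1.68 ± 0.24 SE, with an adjusted p of 0.00371. Both calls held under each alternative tried.

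Obp99d, a Minus-C gene beside Obp99b, had the largest fall of the Obp genes in WT. Obp99d was at 15.7, 26.6 and 31.6 RPKM in WT vehicle (36.01 in the set-aside library) and at 8.25, 1.46, 2.38 and 2.35 RPKM in WT AMPH. WT AMPH replicate 1 was the highest of its group, yet under all vehicle libraries. Obp99d in WT had a log2 change of -2.62 ± 0.43 SE, with an adjusted p of 0.00708. Obp99d in DAT mutants was at 22.8, 33.6 and 28.3 RPKM on vehicle (58.8 in the set-aside library) and at 3.69, 9.28 and 15.3 RPKM on AMPH. The groups did not overlap, and the DAT mutant AMPH libraries covered a wide range. Obp99d in DAT mutants had a log2 change of -1.64 ± 0.39 SE, with an adjusted p of 0.0252. With all 15 libraries this DAT mutant call was lost (adjusted p = 0.148).

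**Figure D3:**
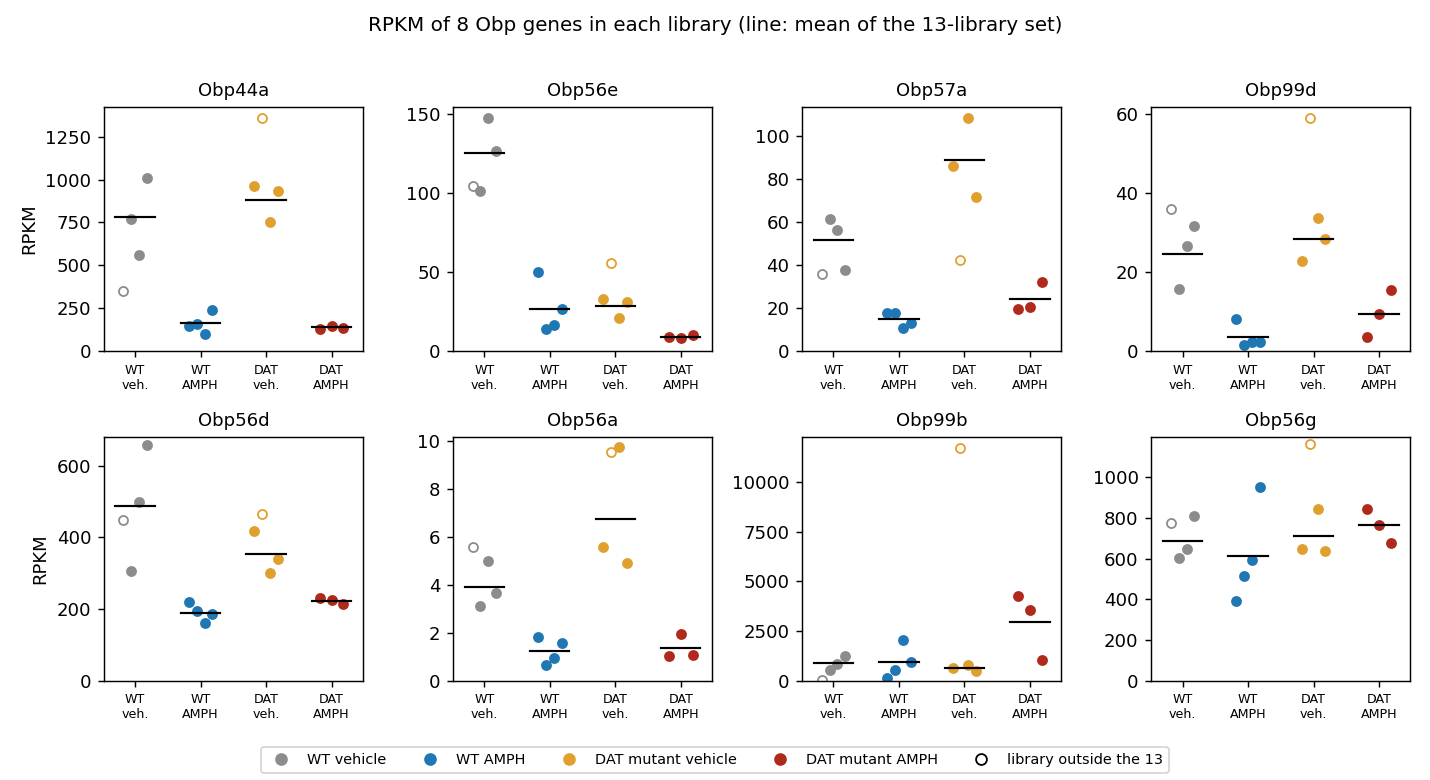
RPKM of 8 Obp genes in each library, by group, on linear axes from 0. Filled points are the 13 libraries compared, open points the 2 set aside and lines the means of the filled points. Obp44a, Obp56e, Obp57a, Obp99d, Obp56d and Obp56a are lower after AMPH in both strains, Obp99b is higher in DAT mutants after AMPH except beside the set-aside library at 11700 RPKM, and Obp56g shows overlapping groups.

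Obp99b was the only Obp gene that rose after AMPH, and it passed the test in DAT mutants alone. Obp99b was at 545, 836 and 1246 RPKM in WT vehicle (26.4 in the set-aside library) and at 115, 563, 2073 and 936 RPKM in WT AMPH. The WT groups overlapped and spread widely, and replicate 1 of either WT group was the lowest. Obp99b in DAT mutants was at 635, 806 and 489 RPKM on vehicle (11700.3 in the set-aside library) and at 4269, 3539 and 1036 RPKM on AMPH. Over the 13 libraries the DAT mutant groups did not overlap, but the set-aside vehicle library exceeded every AMPH library. Obp99b in DAT mutants had a log2 change of 1.99 ± 0.47 SE, with an adjusted p of 0.0272. Obp99b in WT had a log2 change of -0.47 ± 0.84 SE, with an adjusted p of 0.756. With all 15 libraries the DAT mutant value was 0.93 (adjusted p = 0.933), and the difference between strains was not called (-2.46 ± 1.12 SE, WT minus DAT mutant, unadjusted p = 0.0477, adjusted p = 0.950).

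Obp99c, which lies in the same run and is also Minus-C, did not pass the test in either strain. Obp99c was at 486, 497 and 356 RPKM in WT vehicle (25.1 in the set-aside library) and at 93.97, 595, 851 and 189 RPKM in WT AMPH. Obp99c in DAT mutants was at 412, 209.7 and 411 RPKM on vehicle (1702 in the set-aside library) and at 404, 356 and 440.3 RPKM on AMPH. The WT groups overlapped, and replicate 1 was the lowest in both. Its log2 change was -0.52 ± 0.68 SE in WT (95% interval -2.07 to 1.04) and 0.28 ± 0.25 SE in DAT mutants (-0.29 to 0.85).

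Of the genes whose products are also known from seminal fluid, Obp56e fell after AMPH in both strains and differed between strains. Obp56e was at 101, 148 and 127 RPKM in WT vehicle (105 in the set-aside library) and at 49.98, 14.2, 16.8 and 26.9 RPKM in WT AMPH. Obp56e in DAT mutants was at 32.9, 21.3 and 31.2 RPKM on vehicle (56.1 in the set-aside library) and at 9.15, 8.20 and 10.4 RPKM on AMPH. Vehicle and AMPH groups did not overlap in either strain, and the DAT mutant vehicle libraries lay under all WT vehicle libraries. Obp56e in WT had a log2 change of -2.32 ± 0.38 SE, with an adjusted p of 0.00694. Obp56e in DAT mutants had a log2 change of -1.50 ± 0.17 SE, with an adjusted p of 0.00113. The call held under each alternative tried in both strains.

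Obp8a, a Minus-C gene of this set, fell in DAT mutants. Obp8a was at 7.18, 11.8 and 4.58 RPKM in WT vehicle (6.32 in the set-aside library) and at 2.48, 2.71, 3.80 and 8.06 RPKM in WT AMPH. WT AMPH replicate 4 lay within the range of the vehicle libraries, so the WT groups overlapped. Obp8a in DAT mutants was at 6.76, 14.3 and 16.6 RPKM on vehicle (10.1 in the set-aside library) and at 5.31, 5.65 and 4.75 RPKM on AMPH. DAT mutant groups did not overlap, set-aside library included. Obp8a in DAT mutants had a log2 change of -1.04 ± 0.27 SE, with an adjusted p of 0.0362. Obp8a in WT had a log2 change of -0.78 ± 0.37 SE, with an adjusted p of 0.201. Without DAT mutant vehicle replicate 4 or DAT mutant AMPH replicate 3 the DAT mutant call was lost, with an adjusted p of up to 0.137. It was also lost with all 15 libraries (adjusted p = 0.287).

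Obp56g, the most abundant of the 3, overlapped between vehicle and AMPH in both strains. Obp56g was at 604, 648 and 807 RPKM in WT vehicle (776 in the set-aside library) and at 390.0, 515, 594 and 951 RPKM in WT AMPH. Obp56g in DAT mutants was at 647, 843 and 636 RPKM on vehicle (1160.1 in the set-aside library) and at 843, 766 and 678 RPKM on AMPH. Its log2 change was -0.23 ± 0.28 SE in WT (95% interval -0.88 to 0.42) and 0.11 ± 0.15 SE in DAT mutants (-0.23 to 0.46). The male accessory gland markers Acp63F and Acp95EF summed to 5.75 to 12.98 RPKM over the 13 libraries, with overlapping groups.

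Of the antennal genes, Obp19a fell in both strains. Obp19a was at 222, 251 and 259 RPKM in WT vehicle (305 in the set-aside library) and at 169, 95.5, 156 and 70.4 RPKM in WT AMPH. Obp19a in DAT mutants was at 279, 273 and 305 RPKM on vehicle (149 in the set-aside library) and at 107, 152 and 109 RPKM on AMPH. AMPH and vehicle groups of Obp19a did not overlap in the 13 libraries of either strain, but the set-aside DAT mutant vehicle library lay within the AMPH range. Obp19a in WT had a log2 change of -1.07 ± 0.29 SE, with an adjusted p of 0.043. Obp19a in DAT mutants had a log2 change of -1.23 ± 0.15 SE, with an adjusted p of 0.00169. The WT call was lost when any 1 of the 3 WT vehicle libraries was left out (highest adjusted p = 0.135). The DAT mutant call of Obp19a was lost with all 15 libraries (adjusted p = 0.256).

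Obp59a, which is needed in Drosophila for humidity sensing, fell in DAT mutants. Obp59a was at 29.7, 33.4 and 22.9 RPKM in WT vehicle (38.6 in the set-aside library) and at 22.6, 21.6, 34.8 and 17.9 RPKM in WT AMPH. Obp59a in DAT mutants was at 35.3, 40.3 and 42.2 RPKM on vehicle (36.7 in the set-aside library) and at 29.4, 29.7 and 18.6 RPKM on AMPH. The WT groups overlapped and the DAT mutant groups did not. Obp59a in DAT mutants had a log2 change of -0.61 ± 0.18 SE, with an adjusted p of 0.0522. Obp59a in WT had a log2 change of -0.26 ± 0.22 SE, with an adjusted p of 0.467. Without DAT mutant vehicle replicate 3 or replicate 4 the DAT mutant call was lost. It was also lost with all 15 libraries (adjusted p = 0.496).

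The taste-organ genes Obp57b to Obp57e, Obp19b and Obp49a were mixed: 3 of 6 fell in WT and 3 of 6 in DAT mutants. Of all transcripts 14.8% and 15.4% were called lower. Obp57b was at 43.1, 65.8 and 28.98 RPKM in WT vehicle (55.3 in the set-aside library) and at 22.3, 21.5, 19.4 and 28.5 RPKM in WT AMPH. Obp57b in DAT mutants was at 26.2, 37.6 and 31.00 RPKM on vehicle (52.8 in the set-aside library) and at 9.79, 16.9 and 13.9 RPKM on AMPH. AMPH libraries of Obp57b lay under the vehicle libraries in both strains, by a narrow margin in WT. Obp57b in WT had a log2 change of -0.91 ± 0.25 SE, with an adjusted p of 0.0458. Obp57b in DAT mutants had a log2 change of -1.18 ± 0.20 SE, with an adjusted p of 0.00641. The WT call was lost without WT vehicle replicate 2 or replicate 3 (highest adjusted p = 0.122). With all 15 libraries the DAT mutant value missed the threshold (adjusted p = 0.106).

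Obp57c, of which another transcript than the one used shares bases with Obp57b, fell in WT. Obp57c was at 206, 216 and 182 RPKM in WT vehicle (252 in the set-aside library) and at 118, 128, 121 and 174 RPKM in WT AMPH. Obp57c in DAT mutants was at 489, 353 and 305 RPKM on vehicle (678 in the set-aside library) and at 384, 218 and 172 RPKM on AMPH. The WT groups did not overlap, while DAT mutant AMPH replicate 1 exceeded 2 of the vehicle libraries. Obp57c in WT had a log2 change of -0.58 ± 0.16 SE, with an adjusted p of 0.0418. Obp57c in DAT mutants had a log2 change of -0.62 ± 0.29 SE, with an adjusted p of 0.184. The difference between the responses was 0.04 ± 0.36 SE, so passing in 1 strain does not show that the strains differ. The WT call was lost without WT vehicle replicate 2 or replicate 3.

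Obp57d and Obp57e, which influence the choice of egg-laying sites between Drosophila species, lie side by side and differed in level. Obp57d was at 12.8, 18.4 and 17.6 RPKM in WT vehicle (21.9 in the set-aside library) and at 12.98, 13.2, 10.9 and 7.84 RPKM in WT AMPH. Obp57d in DAT mutants was at 17.02, 14.4 and 16.7 RPKM on vehicle (29.4 in the set-aside library) and at 12.99, 11.9 and 11.3 RPKM on AMPH. Obp57d overlapped between groups in WT and not in DAT mutants. Obp57d in DAT mutants had a log2 change of -0.38 ± 0.10 SE, with an adjusted p of 0.0427. Obp57d in WT had a log2 change of -0.51 ± 0.19 SE, with an adjusted p of 0.116. The DAT mutant call was lost without DAT mutant vehicle replicate 1 or 4, or without DAT mutant AMPH replicate 2 or 3. It was also lost with all 15 libraries (adjusted p = 0.631).

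Obp19b fell in WT alone by the test, though its groups overlapped: WT vehicle ran from 68.0 to 105 RPKM and WT AMPH from 37.1 to 71.9 RPKM. Obp19b in WT had a log2 change of -0.72 ± 0.22 SE, with an adjusted p of 0.0675. In DAT mutants the log2 change was -0.03 ± 0.17 SE, and the difference between the strains reached an unadjusted p of 0.0445 and an adjusted p of 0.927. The WT call was lost without WT vehicle replicate 3 or 4, or without WT AMPH replicate 3 or 4.

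Obp49a, a Plus-C gene needed in Drosophila for bitter compounds to suppress the sweet response, fell in DAT mutants with the highest adjusted p of the genes called. Obp49a was at 81.6, 89.4 and 131 RPKM in WT vehicle (143 in the set-aside library) and at 91.4, 172, 73.8 and 81.9 RPKM in WT AMPH. Obp49a in DAT mutants was at 123, 93.2 and 92.4 RPKM on vehicle (129 in the set-aside library) and at 74.5, 87.7 and 66.7 RPKM on AMPH. Its WT groups overlapped and its DAT mutant groups did not. Obp49a in DAT mutants had a log2 change of -0.42 ± 0.15 SE, with an adjusted p of 0.0951. Obp49a in WT had a log2 change of 0.00 ± 0.29 SE, with an adjusted p of 0.998. That call was lost in 12 of 15 alternatives, among them 5 of the 6 that left out 1 library.

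Obp57a and Obp19c, with no site assigned here, fell in both strains. Obp57a was at 61.6, 56.2 and 37.5 RPKM in WT vehicle (35.8 in the set-aside library) and at 17.8, 17.6, 10.97 and 13.04 RPKM in WT AMPH. Obp57a in DAT mutants was at 86.2, 109 and 71.4 RPKM on vehicle (42.4 in the set-aside library) and at 19.8, 20.4 and 32.1 RPKM on AMPH. AMPH libraries of Obp57a lay under every vehicle library of their strain, the set-aside ones included. Obp57a in WT had a log2 change of -1.73 ± 0.21 SE, with an adjusted p of 0.00259. Obp57a in DAT mutants had a log2 change of -1.85 ± 0.21 SE, with an adjusted p of 0.00118. With all 15 libraries the DAT mutant value missed the threshold (adjusted p = 0.104).

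Obp19c had a smaller fall. Obp19c was at 8.79, 9.07 and 10.2 RPKM in WT vehicle (7.89 in the set-aside library) and at 4.63, 3.19, 4.69 and 8.04 RPKM in WT AMPH. Obp19c in DAT mutants was at 10.3, 9.03 and 9.02 RPKM on vehicle (7.75 in the set-aside library) and at 4.13, 7.28 and 5.67 RPKM on AMPH. Groups did not overlap over the 13 libraries, and in WT the set-aside library lay just under the highest AMPH library. Obp19c in WT had a log2 change of -0.81 ± 0.23 SE, with an adjusted p of 0.0495. Obp19c in DAT mutants had a log2 change of -0.67 ± 0.17 SE, with an adjusted p of 0.034. The WT call was lost when any 1 of the 3 WT vehicle libraries was left out, and the DAT mutant call without DAT mutant vehicle replicate 1 or DAT mutant AMPH replicate 3. The DAT mutant call of Obp19c was also lost with all 15 libraries (adjusted p = 0.477).

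Neighbouring genes differed in their calls, and the differences between them were not tested. In the Obp56 region Obp56e, Obp56d and Obp56a fell in both strains, while Obp56g and Obp56h were not called after AMPH in either. Obp56h changed by -0.20 ± 0.24 SE in WT and 0.03 ± 0.18 SE in DAT mutants. Obp18a, on X, had the smallest range of the Obp genes detected in every library, with 12.9 to 22.6 RPKM over all 15 libraries (1.76-fold) and changes of 0.12 ± 0.17 SE and -0.05 ± 0.14 SE. The Dimer genes Obp83cd and Obp83ef lie on opposite strands with their 3' ends overlapping by 56 bases and were not called either. Obp83ef averaged 3.82 RPKM in WT vehicle and 8.27 RPKM in WT AMPH, with a log2 change of 0.66 ± 0.57 SE.

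The genes at the bottom of the range rest on few reads. Obp83g, Obp93a, Obp56c, Obp58b and Obp50a did not pass the filter in either AMPH comparison, and Obp57e passed in both. Obp93a corresponded to 0 reads in 3 DAT mutant vehicle libraries and 1 read in the other, against 15 to 30 reads in the 4 WT vehicle libraries. A count of 0 allows up to 3 reads, which would be 0.108 RPKM in replicate 1, 0.423 in replicate 2 and 0.453 RPKM in replicate 3 of DAT mutant vehicle, and WT vehicle was at 0.457 to 1.38 RPKM. Fitted without the filter over the 13 libraries, Obp93a was called lower in DAT mutant vehicle than in WT vehicle (log2 difference -0.92 ± 0.21 SE, adjusted p = 0.0597), a value that depends on the pseudocount. Obp83g was at 0.0960 to 0.169 RPKM in WT AMPH and at 0.474 to 2.30 RPKM in WT vehicle, and without the filter it was called lower after AMPH in WT (log2 change -0.84 ± 0.26 SE, adjusted p = 0.0694).

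Across the 23 Obp genes tested in both strains, 16 changed with the same sign, 14 of them downward. The 9 genes called lower in both strains, Obp44a, Obp56a, Obp56d, Obp56e, Obp57a, Obp57b, Obp99d, Obp19a and Obp19c, made up 81.8% of the WT calls and 64.3% of the DAT mutant calls. The log2 changes of the 2 strains had a Pearson correlation of 0.69 and a Spearman correlation of 0.76 over the 23 genes, which share libraries and are not independent replicates. The same shares and correlations were not computed over all transcripts. These values therefore do not show that the Obp genes were more alike between strains than other genes. The difference between the AMPH responses was then fitted over all 4 groups. None of 26 Obp genes was called (limma, Benjamini-Hochberg), against 0.145% of 17915 transcripts, and none was called in any alternative. At an unadjusted p under 0.05 there were 4, Obp57e, Obp58b, Obp19b and Obp99b, against 5.21% of all transcripts. The 95% interval of this difference was -0.43 to 1.17 for Obp44a, -1.86 to 0.21 for Obp56e and -0.60 to 0.84 for Obp57a (WT minus DAT mutant, log2).

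DAT mutants on vehicle differed from WT on vehicle in 5 of 24 Obp genes, with 1 lower and 4 higher. Over all 17487 transcripts 8.45% were called and 4.59% were called lower. Obp56e, given above, was lower in DAT mutants in every library. On vehicle Obp56e had a log2 difference of -2.11 ± 0.19 SE (DAT mutant minus WT), with an adjusted p of 0.000886. It kept this call under each alternative tried, with an adjusted p of 0.0329 over all 15 libraries.

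The 4 higher genes were Obp57e, Obp57c, Obp57a and Obp56h. Obp57e was at 1.13, 0.939 and 0.264 RPKM in WT vehicle (1.31 in the set-aside library) and at 0.884, 1.38, 0.693 and 1.82 RPKM in WT AMPH. Obp57e in DAT mutants was at 2.69, 5.86 and 5.25 RPKM on vehicle (0 in the set-aside library) and at 1.34, 2.74 and 3.63 RPKM on AMPH. The 3 DAT mutant vehicle libraries compared lay above every WT vehicle library, and the set-aside one held no read of Obp57e, where 3 reads would be 0.608 RPKM. On vehicle Obp57e had a log2 difference of 1.64 ± 0.29 SE (DAT mutant minus WT), with an adjusted p of 0.019. These levels correspond to 24 to 52 reads in the 3 DAT mutant libraries and 4 to 33 reads in the 3 WT libraries.

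Obp57c and Obp57a, given above, were also higher in every DAT mutant vehicle library of the 13 than in the WT vehicle libraries. On vehicle Obp57c had a log2 difference of 0.90 ± 0.17 SE (DAT mutant minus WT), with an adjusted p of 0.0301. On vehicle Obp57a had a log2 difference of 0.78 ± 0.21 SE (DAT mutant minus WT), with an adjusted p of 0.0811. Obp56h, with no site assigned here, lay in the Obp56 region. Obp56h was at 24.4, 19.3 and 24.1 RPKM in WT vehicle (39.4 in the set-aside library) and at 17.1, 21.9, 12.98 and 29.6 RPKM in WT AMPH. Obp56h in DAT mutants was at 37.5, 44.7 and 27.1 RPKM on vehicle (79.6 in the set-aside library) and at 37.5, 40.3 and 31.7 RPKM on AMPH. The WT and DAT mutant vehicle groups of Obp56h did not overlap over the 13 libraries. On vehicle Obp56h had a log2 difference of 0.64 ± 0.18 SE (DAT mutant minus WT), with an adjusted p of 0.09. With all 15 libraries none of the 4 passed, with adjusted p from 0.183 for Obp57c to 0.564 for Obp57e. Over all transcripts 189 of 17436 were called in that fit. Obp56h and Obp57a were each lost in 5 of the 6 fits that left out 1 library, and the count of Obp genes called ranged from 3 to 5 over those fits.

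All 5 of these genes lie on 2R, the arm that carries DAT (chr2R:12446062-12452763), at 3.15 Mb (Obp56e), 3.25 Mb (Obp56h), 3.94 Mb (Obp57c and Obp57a) and 3.98 Mb (Obp57e) from it. Of the 13 Obp genes tested on 2R 5 were called, and of the 11 on X and 3R none was. The share of all transcripts called on each arm was not computed, so these counts have no background. Among the 7 family genes under other names tested, lush on 3L and Obp84a on 3R were called lower on vehicle. The log2 difference of Obp84a was -0.56 ± 0.15 SE (adjusted p = 0.0811). Obp93a, on 3R, was called without the filter, as given above. The DAT mutation and a stretch of chromosome inherited with it cannot be told apart in this design.

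**Figure D4:**
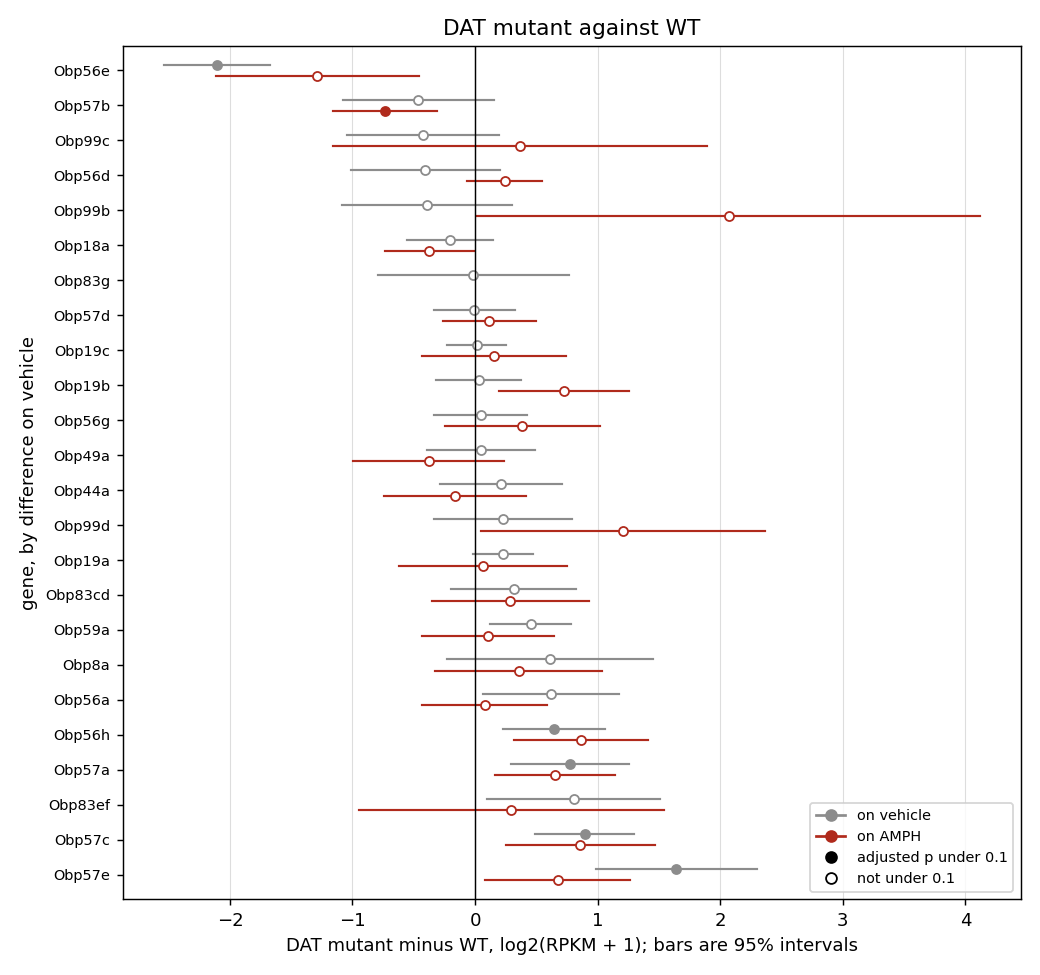
DAT mutant minus WT on the log2(RPKM + 1) scale for the 24 Obp genes tested on vehicle, with vehicle in grey and AMPH in red. Bars are 95% intervals and filled points have an adjusted p under 0.1. Obp56e lies furthest to the left on vehicle at -2.11, and Obp57e furthest to the right at 1.64.

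On AMPH, 1 of 23 Obp genes was called between the strains, against 5.54% of 17574 transcripts. Obp57b, given above, was lower in all 3 DAT mutant AMPH libraries than in the 4 WT AMPH libraries. On AMPH Obp57b had a log2 difference of -0.74 ± 0.19 SE (DAT mutant minus WT), with an adjusted p of 0.0835. This call was lost in 10 of 15 alternatives, and under median centring, quantile normalization or with the replicate number as a block the 1 Obp gene called was a higher one instead. Obp56e had a log2 difference of -1.29 ± 0.37 SE on AMPH without passing (adjusted p = 0.111), with DAT mutant AMPH libraries again all under the WT ones. Obp56h and Obp57a kept non-overlapping groups with DAT mutants higher, at 0.87 ± 0.24 SE (adjusted p = 0.104) and 0.65 ± 0.21 SE (adjusted p = 0.159). The strain comparisons on vehicle and on AMPH use different libraries.

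The family genes listed under other names were examined by the same fits. Obp19d (Pbprp2), Obp83b (Os-E) and Obp83a (Pbprp3) each had a higher WT vehicle mean than any of the 28, and Obp19d, at 2075 to 2518 RPKM, held rank 7 among all genes. After AMPH 6 of the 7 tested fell in WT and 6 of 7 in DAT mutants, and none rose. Of all transcripts 14.8% and 15.4% were called lower. The counts of these family genes over all 15 libraries were 7 in WT and 1, Obp28a, in DAT mutants. Over all transcripts those libraries gave 5167 and 258 calls. The largest fall was that of Obp28a (Pbprp5), an antennal protein that buffers sudden changes in odour level. Obp28a was at 129.7, 162 and 223 RPKM in WT vehicle (193 in the set-aside library) and at 66.4, 50.1, 45.1 and 37.2 RPKM in WT AMPH. Obp28a in DAT mutants was at 207, 156 and 212 RPKM on vehicle (309.9 in the set-aside library) and at 43.2, 76.02 and 87.95 RPKM on AMPH. AMPH and vehicle groups did not overlap in either strain. Obp28a in WT had a log2 change of -1.76 ± 0.23 SE, with an adjusted p of 0.00284. Obp28a in DAT mutants had a log2 change of -1.51 ± 0.25 SE, with an adjusted p of 0.00618.

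The pheromone-binding lush differed by both strain and treatment. lush was at 123, 115 and 112 RPKM in WT vehicle (119.7 in the set-aside library) and at 71.9, 76.5, 57.6 and 75.4 RPKM in WT AMPH. lush in DAT mutants was at 60.8, 59.7 and 59.9 RPKM on vehicle (28.01 in the set-aside library) and at 35.97, 43.6 and 31.7 RPKM on AMPH. Among the 13 libraries, WT vehicle was highest and DAT mutant AMPH lowest, with no overlap between strains on the same food or between foods in the same strain. lush in WT had a log2 change of -0.73 ± 0.12 SE, with an adjusted p of 0.00828. lush in DAT mutants had a log2 change of -0.69 ± 0.12 SE, with an adjusted p of 0.00814. The DAT mutant groups of lush overlapped over all 15 libraries, and the call was lost (log2 change -0.43, adjusted p = 0.933). The strains also differed on each food. On vehicle lush had a log2 difference of -0.94 ± 0.08 SE (DAT mutant minus WT), with an adjusted p of 0.00081. On AMPH lush had a log2 difference of -0.91 ± 0.15 SE (DAT mutant minus WT), with an adjusted p of 0.0154. This gene lies on 3L, apart from the arm that carries DAT. The set-aside DAT mutant vehicle library lay under all 3 DAT mutant AMPH libraries.

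Genes outside the family that act in or around the olfactory neurons were also lower after AMPH in part. Of 8 perireceptor genes tested besides lush, 4 fell in WT and 5 in DAT mutants after AMPH, and none rose. Of all transcripts 14.8% and 15.4% were called lower. Over all 15 libraries 7 of the perireceptor genes fell in WT and 1, Est-6, in DAT mutants. Calls over all transcripts were then 5167 and 258. Esterase-6 (Est-6), an odorant-degrading enzyme, changed by -1.40 ± 0.27 SE in WT (adjusted p = 0.0130) and -1.16 ± 0.16 SE in DAT mutants (adjusted p = 0.00322). The chemosensory protein gene a10 changed by -0.87 ± 0.18 SE (adjusted p = 0.0183) and -1.01 ± 0.21 SE (adjusted p = 0.0159). Orco, the co-receptor of odorant receptors and a marker of the neurons themselves, changed by -0.64 ± 0.45 SE in WT (adjusted p = 0.379) and by -0.96 ± 0.34 SE in DAT mutants (adjusted p = 0.0985).

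Levels were also summed over the Obp genes and over markers of cell types. Over all 28 genes, levels in the 13 libraries were 3620 to 5086 RPKM in WT vehicle and 1576 to 4341 RPKM in WT AMPH. They were 3920 to 4362 RPKM in DAT mutant vehicle and 3097 to 6683 RPKM in DAT mutant AMPH, with overlap in both strains. Obp99b and Obp99c were not called lower in either strain. Over the other 26 genes levels were 2589 to 3484 RPKM in WT vehicle and 1367 to 1923 RPKM in WT AMPH. They were 3020 to 3316 RPKM in DAT mutant vehicle and 1620 to 2010 RPKM in DAT mutant AMPH. AMPH and vehicle thus did not overlap in either strain without those 2 genes. The 2 were left out with their values in these data known, so this separation follows in part from that choice. Antennal markers (9 of 10 listed were in the table, lush included) summed to 184 to 241, 120 to 163, 109 to 137 and 63.3 to 79.8 RPKM in the same order, and none of the 9 was at 0 in all libraries. A large share of that sum was lush, and the other 8 summed to 68.3 to 118, 44.2 to 90.6, 48.9 to 77.3 and 27.3 to 46.8 RPKM, with overlap in WT and none in DAT mutants. Gene by gene, lush was the only antennal marker called lower in WT, of 8 tested, and lush, Orco and Ir76b were called lower in DAT mutants, of 6. Glial markers (6 of 6) summed to 704 to 853, 551 to 632, 596 to 807 and 444 to 457 RPKM, the groups of each strain apart, and 2 of the 6 were called lower in WT and 5 in DAT mutants. Fat body markers (4 of 9 in the table: Lsp1alpha, Lsp1beta, Lsp2 and apolpp) summed to 86.3 to 171, 10.4 to 25.7, 204 to 293 and 11.9 to 26.1 RPKM, and of 3 tested 2 fell in WT and 3 in DAT mutants. Sums of neuronal markers (5 of 6 in the table) were 758 to 820, 613 to 814, 834 to 904 and 616 to 767 RPKM, and those of photoreceptor markers (6 of 6) 24900.0 to 45560.0, 30580.0 to 40610.0, 40360.0 to 43090.0 and 34490.0 to 35340.0 RPKM. Both overlapped between foods in WT and were lower on AMPH, without overlap, in DAT mutants, where 1 of 5 neuronal and 2 of 6 photoreceptor markers were called lower, against 2 and 0 in WT. These ranges leave out the set-aside DAT mutant vehicle library. Its sums of glial, neuronal and photoreceptor markers were 435, 344 and 27240 RPKM, each under all 3 DAT mutant AMPH libraries. Its antennal sum, lush included, was 67.9 RPKM, within the range of DAT mutant AMPH. In the fit of all 15 libraries no antennal marker, lush included, and no glial, neuronal or photoreceptor marker was called in DAT mutants. That fit called 258 of 17555 transcripts. Fat body markers were low after AMPH in the DAT mutants, in which Obp99b was high. In WT AMPH, where these markers were also low, Obp99b ran from 115 to 2073 RPKM. The set-aside WT vehicle library combined 10.5 RPKM of fat body markers with 26.4 RPKM of Obp99b. The set-aside DAT mutant vehicle library combined 141 RPKM of them with 11700 RPKM of Obp99b. No relation between the 2 over libraries was computed. The part of the marked cell types in the changes of the Obp genes was not tested. In whole-head RNA, fewer cells of a type and less RNA per cell cannot be told apart.

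**Figure D5:**
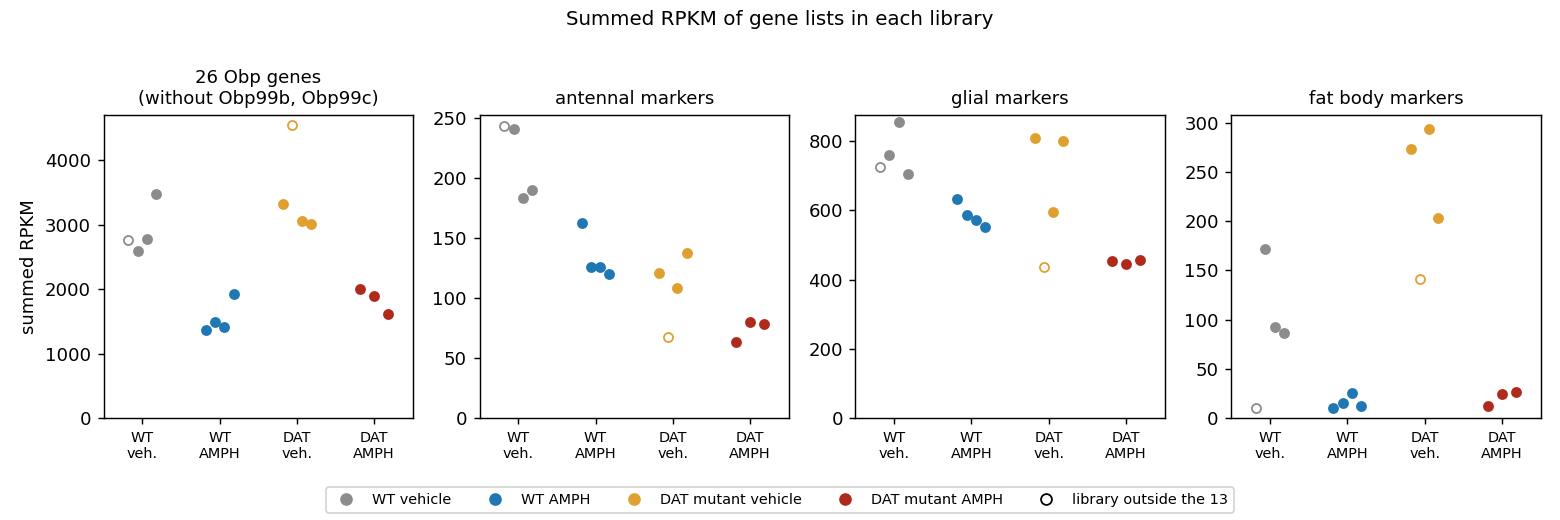
Summed RPKM in each library of 26 Obp genes, antennal markers, glial markers and fat body markers, by group on axes from 0. Filled points are the 13 libraries compared and open points the 2 set aside. In all 4 panels the AMPH libraries of the 13 lie under the vehicle libraries of the same strain. The 26 genes leave out Obp99b and Obp99c, a choice made with their values known. Sums over all 28 genes overlapped between vehicle and AMPH in both strains.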

How the data were processed

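Libraries of polyA-selected RNA from single heads were sequenced on an Ion Torrent platform, and the authors mapped reads to dm3 with tmap. The deposited values are RPKM per transcript, 1 column per library. The counting tool and its use of strand are not given in the sources used here. Values in the 15 single-library files were identical to those in the series table. The study's own test had used counts, which were not analysed here.

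Tests were run with limma 3.58.1 in R 4.3.3 on log2(RPKM + 1), with a mean-variance trend, two-sided, and p-values adjusted by Benjamini-Hochberg over all transcripts tested, at a threshold of 0.1. Transcripts under 1 RPKM were left out unless the number of libraries at or above this level equalled at least the size of the smallest group in the fit. Fold changes on this scale understate the change of genes near 1 RPKM. Each comparison of 2 groups was fitted on those groups, and the difference between AMPH responses on all 4. The scripts were tested on simulated data.

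The comparisons used the 13 libraries whose group means of log2(rounded RPKM + 1) matched, within 0.0001, the group means that the study lists. This choice is inferred, and all 15 libraries are given as an alternative. P-values measure the spread between single flies.

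Depth was estimated from 718 single-exon transcripts, whose low values are whole multiples of what 1 read is worth. All values used came out whole within 0.15 of a read. Values and floors given as reads cover counting error only.

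Genes were matched to symbols of a later annotation by gene ID for 10188 of 11257 genes. Obp genes that passed the test with groups that did not overlap, and the 6 with the highest WT vehicle mean, are given for every library. Other called genes are given with their change, and the rest by range and count. The Obp genes, marker lists and tests were chosen with earlier results of these data known. Site and class lists come from general knowledge of the family. No sequences were used here.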

Additional observations from a re-analysis of the deposited data

Results flagged for a closer look

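A sample far from the rest of its group, by Dixon's test at 95%, occurred in 10 of 84 groups of 4 values, where chance gives about 1 in 20, or 4.2. DAT mutant vehicle replicate 2, one of the 2 libraries set aside, held 6 of them: Obp99b at 11700 RPKM (489 to 806 in the other 3), Obp99c at 1702 RPKM (209.7 to 412), Obp19b at 151 RPKM (82.2 to 90.5), Obp83cd at 15.6 RPKM (1.29 to 2.93), Obp58b at 5.58 RPKM (0.729 to 1.32) and Obp50a at 2.44 RPKM (0 to 0.195). This library held 12 M reads, so the Obp50a value corresponds to 19.7 estimated reads. WT AMPH replicate 1 was high for Obp99d, at 8.25 RPKM against 1.46 to 2.38 RPKM, and for Obp50a, at 0.3 RPKM against 0.0290 to 0.0690 RPKM. WT vehicle replicate 1, also set aside, was high for Obp58b, at 1.68 RPKM against 0.830 to 0.886 RPKM. DAT mutant vehicle replicate 4 was the only library of its group with a read of Obp93a, at 0.152 RPKM.

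Obp58b, a Plus-C gene, had groups that lay apart in opposite directions in the 2 strains over the 13 libraries, without a call in either. The gene did not pass the filter in either AMPH comparison. Fitted without the filter, Obp58b changed by 0.15 ± 0.11 SE in WT (adjusted p = 0.424) and -0.31 ± 0.16 SE in DAT mutants (adjusted p = 0.239). Its mean in WT AMPH was 1.23 times that in WT vehicle, and all 4 AMPH libraries (0.927 to 1.23 RPKM) lay above the 3 vehicle libraries (0.830 to 0.886 RPKM). The set-aside WT vehicle library, at 1.68 RPKM, lay above all 4 AMPH libraries. In DAT mutants all 3 AMPH libraries (0.502 to 0.6 RPKM) lay under the vehicle libraries (0.729 to 1.32 RPKM). The difference between the responses was 0.46 ± 0.20 SE, WT minus DAT mutant, with an unadjusted p of 0.0399 and an adjusted p of 0.9 (limma, Benjamini-Hochberg).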

How the results depend on the processing

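No call changed direction in any alternative tried. Every alternative kept 6 of the 11 Obp calls in WT (Obp44a, Obp56a, Obp56d, Obp56e, Obp57a and Obp99d), 3 of the 14 in DAT mutants (Obp44a, Obp56a and Obp56e), 1 of the 5 between strains on vehicle (Obp56e) and 0 of the 1 on AMPH. Using all 15 libraries gave 12 calls in WT, 3 in DAT mutants and 1 between strains on vehicle, and the same libraries enter the comparison on AMPH in either set. Over all transcripts it gave 5167, 258 and 189 calls, against 3868, 3862 and 1478 with the 13. It also moved the median log2 change over all transcripts from -0.08 to 0.12 in DAT mutants and from -0.02 to -0.22 between strains on vehicle. Leaving out 1 library gave 6 to 13 Obp calls in WT, 10 to 14 in DAT mutants, 3 to 5 between strains on vehicle and 0 to 3 on AMPH. The same fits gave 2108 to 4677, 2145 to 4041, 570 to 1331 and 310 to 1084 calls over all transcripts. Without WT AMPH replicate 1, and with the replicate block, Obp83ef was called higher in WT (log2 change 1.22). Between strains on vehicle the count of Obp genes was 3 without WT vehicle replicate 3 or 4 or DAT mutant vehicle replicate 1. On AMPH it was 3 without WT AMPH replicate 1, 2 without WT AMPH replicate 2, 3 or 4, and 0 without DAT mutant AMPH replicate 1 or 3. An adjusted p under 0.05 gave 3 between strains on vehicle and 0 on AMPH. Keeping 1 transcript per gene gave 3 between strains on vehicle. Without the filter on low values 3 were called on AMPH, and with all 4 groups in one fit 5 were. In the fit with all 4 groups Obp99b in DAT mutants was not called. Median centring gave 10 calls in WT and 13 in DAT mutants, all lower except Obp99b, and moved the share of all called transcripts that were higher from 32.7% to 50.9% in WT and from 30.4% to 50.6% in DAT mutants. Quantile normalization, chosen after seeing the data, gave 11 and 13 calls and shares of 48.8% and 48.2%. A pseudocount of 0.1 left all 4 counts as they were. The cause of these changes was not tested.

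Replicate numbers here follow the order in which the libraries are listed, so they cannot show whether samples were paired or batched. Libraries with the same number correlated in their deviations from the group means at -0.15 to 0.19 for AMPH in WT and -0.09 to 0.18 in DAT mutants. Between strains these values were -0.19 to -0.13 on vehicle and -0.52 to 0.01 on AMPH. With the replicate block, which uses the same numbers, 10 Obp genes were called in WT and 10 in DAT mutants (Obp99b not among them). Between strains 1 was called on vehicle and 1 on AMPH. Over all transcripts the block gave 3680, 1774, 75 and 109 calls in the same order. No Obp gene was called for the difference between AMPH responses in any of these settings.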

Other observations

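By structural class, 9 of 15 Classic genes tested fell after AMPH in WT and 9 of 15 in DAT mutants, with median log2 changes of -0.72 and -0.65. Over all transcripts 14.8% were called lower in WT and 15.4% in DAT mutants. Of the 5 Minus-C genes 2 fell in WT, and 3 fell and 1 rose in DAT mutants. The Plus-C gene tested, Obp49a, was called in DAT mutants alone, and neither Dimer gene was called in either strain. By known site, 4 of the 6 genes expressed outside chemosensory organs fell in WT, and 4 of 6 fell and 1, Obp99b, rose in DAT mutants, with median log2 changes of -1.22 and -1.14. Over all 15 libraries 2 of these 6 fell in DAT mutants, as did 2 Classic genes and 1 Minus-C gene. That fit called 258 of 17555 transcripts. The counts by class and site are descriptions of small lists, and differences between them were not tested.

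By level, 5 of the 9 genes with at least 100 RPKM in WT vehicle fell in WT, as did 4 of 8 between 10 and 100 RPKM and 2 of 6 tested under 10 RPKM. Over all transcripts, of any level, 14.8% were called lower in WT. Haemocyte markers (Hml, NimC1 and Sr-CI) summed to 1.90 to 14.3 RPKM over the 13 libraries, with overlapping groups.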
